A study of Mus musculus with 20 samples.

Results

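Enteroendocrine cells are scattered through the lining of the gut and release hormones into the blood when they sense the contents of the lumen. The 10 genes described here encode the hormones and markers of these cells that are linked to the fermentation of fibre, and they were taken by symbol from a count table of 26619 genes. They are the peptide hormone genes Gcg, Pyy, Insl5, Sst, Cck and Nts, the serotonin enzyme gene Tph1, the secretory granule genes Chga and Chgb, and the transcription factor gene Neurod1. They were chosen by name and not by their measured values, although earlier results of these data were known. They were measured in distal colon (DC) tissue of 20 male C57BL/6 mice, with 1 library per mouse. From 3 weeks of age all mice ate the Total Western Diet (TWD), made to hold the nutrients that Americans typically eat, and did so for 6 weeks. They were then given the TWD with 0, 2, 5 or 10% resistant potato starch (RPS) for another 3 weeks, with 5 mice on each diet. RPS resists digestion and reaches the large bowel, where microbes ferment it, and the labels call it raw potato starch. The 0% RPS mice, which stayed on the TWD, were the controls in every comparison.

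In the large bowel, L cells express the preproglucagon gene Gcg, whose product is cut into glucagon-like peptides, together with the appetite-lowering peptide YY gene Pyy and the insulin-like peptide gene Insl5. Enterochromaffin cells make serotonin, with Tph1 as the rate-limiting enzyme, and D cells make somatostatin, which inhibits the other hormones. Short-chain fatty acids, the products of starch fermentation, are sensed by receptors on L cells. A piece of whole bowel wall holds few of these cells, and it also holds enteric neurons that make several of the same peptides. In such bulk samples more cells of a type and more RNA per cell cannot be told apart.

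The libraries held 31.3 to 34.97 megacounts (M) at 0% RPS, 24.5 to 31.1 M at 2%, 22.3 to 30.4 M at 5% and 18.4 to 26.6 M at 10% RPS, so depth was lower at higher RPS. Levels are given as CPM, the count of a gene per megacount of its library, after scaling of the libraries by trimmed mean of M-values (TMM). A count of 3, taken as the floor of detection, came to between 0.0850 and 0.163 CPM. This floor covers counting error only. The 12 colon epithelium markers and the 5 posterior Hox genes all passed the filter on low counts, so the defining markers of the labelled tissue were present. Mouse RS10_721, on 5% RPS, held 5910 CPM of 10 pancreatic acinar enzyme genes and mouse RS10_784, on 10% RPS, held 535 CPM, against at most 21.6 CPM in the other 18 mice. The islet genes Ins1 and Ins2 had at most 3 and 5 counts in any library. The 3 counts of Ins1 were in mouse RS10_721, and 5 counts of Ins2 were found both in RS10_721 and in control mouse RS10_707. Groups follow the description label, which disagrees with the treatment label in 3 mice. These are RS10_717 (described as 5%, treatment given as 2%), RS10_725 (10% and 5%) and RS10_748 (2% and 10%). The trend calls of Pyy and Ppy are given with and without them.

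The level of the 10 genes differed widely. Per kilobase of the main transcript, the mean over 20 mice was 162 CPM for Pyy, 74.3 for Insl5, 29.5 for Chga, 23.5 for Gcg, 20.5 for Chgb, 4.69 for Sst, 3.12 for Tph1, 0.575 for Neurod1, 0.132 for Nts and 0.0585 for Cck. Pyy was therefore the most abundant of these messages and lay above Insl5 in 20 of 20 mice. In GRCm39, Insl5 (ENSMUSG00000066090) lies at chr4:102875069-102884039 on the minus strand with 2 exons, Gcg (ENSMUSG00000000394) at chr2:62304873-62313997 on the minus strand with 6 exons and Chga (ENSMUSG00000021194) at chr12:102520484-102531300 on the plus strand with 8 exons. The order of Chga and Gcg held in 16 of 20 mice and that of Gcg and Chgb in 13 of 20, so the ranges of both pairs overlapped. Sst lay above Tph1 in 17 of 20 mice. The ranges of Insl5 and Chga, of Chgb and Sst, and of Tph1 and Neurod1 did not overlap. Cck, the hormone of upper intestinal I cells, had 3 to 12 counts per library and Nts, which encodes neurotensin, 1 to 9 counts. The levels of both lay near the floor, and no difference in Nts could be tested because it failed the filter on low counts. The other 9 members passed it, as did 17893 genes in all.

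Pyy rose with the RPS level. In the 0% RPS mice it stood at 82.0, 68.8, 78.1, 55.6 and 69.8 CPM. At 2% RPS the values were 88.1, 68.0, 78.9, 89.8 and 77.3 CPM. With 5% RPS they came to 107, 95.01, 91.5, 116 and 77.8 CPM, and with 10% RPS to 116, 87.5, 100.2, 133 and 99.8 CPM. All 5 mice on 10% RPS lay above the highest control mouse, as did 4 of 5 on 5% RPS and 2 of 5 on 2% RPS. Among all tested genes, 2.28% had 5 mice on 10% RPS entirely on one side of the 5 control mice, and 1.04% had this at 5% RPS. Pyy was the only member without overlap between 10% and 0% RPS.

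The mean of Pyy was 70.8 ± 10.2 CPM (SD, n = 5) at 0% RPS, 80.4 ± 8.86 at 2%, 97.4 ± 14.6 at 5% and 107 ± 17.4 at 10% RPS. Against the controls, the log2 fold change was 0.18 ± 0.12 (SE) at 2%, 0.46 ± 0.12 at 5% and 0.60 ± 0.12 at 10% RPS, the last a 1.51-fold difference. Fitted as a line over RPS percent, the slope was 0.0594 ± 0.0115 on the log2 scale per 1% RPS, with an adjusted p of 0.0147 by the quasi-likelihood test of edgeR. With 0.05 as the largest adjusted p accepted for a trend, 2.10% of tested genes had one and 1.15% a rising one, and Pyy was the 1 member among the 9 tested. The single contrast at 10% RPS missed the threshold in edgeR, with an adjusted p of 0.0593, and passed it in DESeq2 with 0.00138.

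Leaving out each of the 20 mice in turn, the trend of Pyy stayed past the threshold every time, with adjusted p between 0.00297 and 0.0383. It also held without both mice with pancreatic enzyme RNA, at an adjusted p of 0.0233, and with all libraries thinned to the smallest total, at 0.0114. The call depended on the 3 mice with disagreeing labels. Without them the slope was 0.0577 ± 0.0128 with an adjusted p of 0.0569, and with mice grouped by their treatment label it was 0.0447 ± 0.0146 with an adjusted p of 0.231.

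Markers of the colon epithelium were followed beside Pyy. Of the 12 listed, 11 had a positive slope, as did 46.9% of all tested genes. Of these markers 1, the surface colonocyte keratin gene Krt20, passed the trend threshold, with a slope of 0.0971 ± 0.0213 and an edgeR adjusted p of 0.0249. The summed level of the 12 ranged from 16006 to 21464 CPM at 0% RPS and from 18747 to 22843 CPM at 10% RPS. None of them was at 0 in any group. Within diets, Pyy and the mean log2 level of these markers had a Spearman rho of 0.60 over the 20 mice. With that marker level as a covariate, the slope of Pyy was 0.0303 ± 0.0115 with an adjusted p of 0.720. When Krt20 and Cdx2, which had the steepest slopes among the 12, were left out of the covariate it was 0.0431 ± 0.0108 with an adjusted p of 0.128. With the smooth muscle markers as the covariate the slope was 0.0577 ± 0.0117 and the adjusted p 0.0182. None of the 5 posterior Hox genes had a positive slope, and Hoxb13 alone passed the trend threshold. Its slope was -0.0323 ± 0.00832, with an edgeR adjusted p of 0.0425. All 5 mice on 10% RPS lay below the lowest control mouse in Hoxb13, where 2.28% of tested genes had these 5 mice entirely on one side. Within diets, the rho with Pyy was 0.20 for Hoxb13 and -0.36 for the mean log2 level of the 5 genes. With the other tested members, the rho of that mean level lay between -0.62 for Tph1 and -0.12 for Sst. It was -0.61 for Gcg and -0.59 for Insl5. Hoxb13 had a rho of -0.54 with Ppy and of 0.57 with Sst. With mice grouped by treatment label, 0 genes passed the trend threshold, so the calls of Krt20 and Hoxb13 were lost. The part of tissue makeup in the values of Pyy was not tested beyond the fits above. No fit held a measure of position along the colon, so the part of position was not tested.

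**Figure D1:**
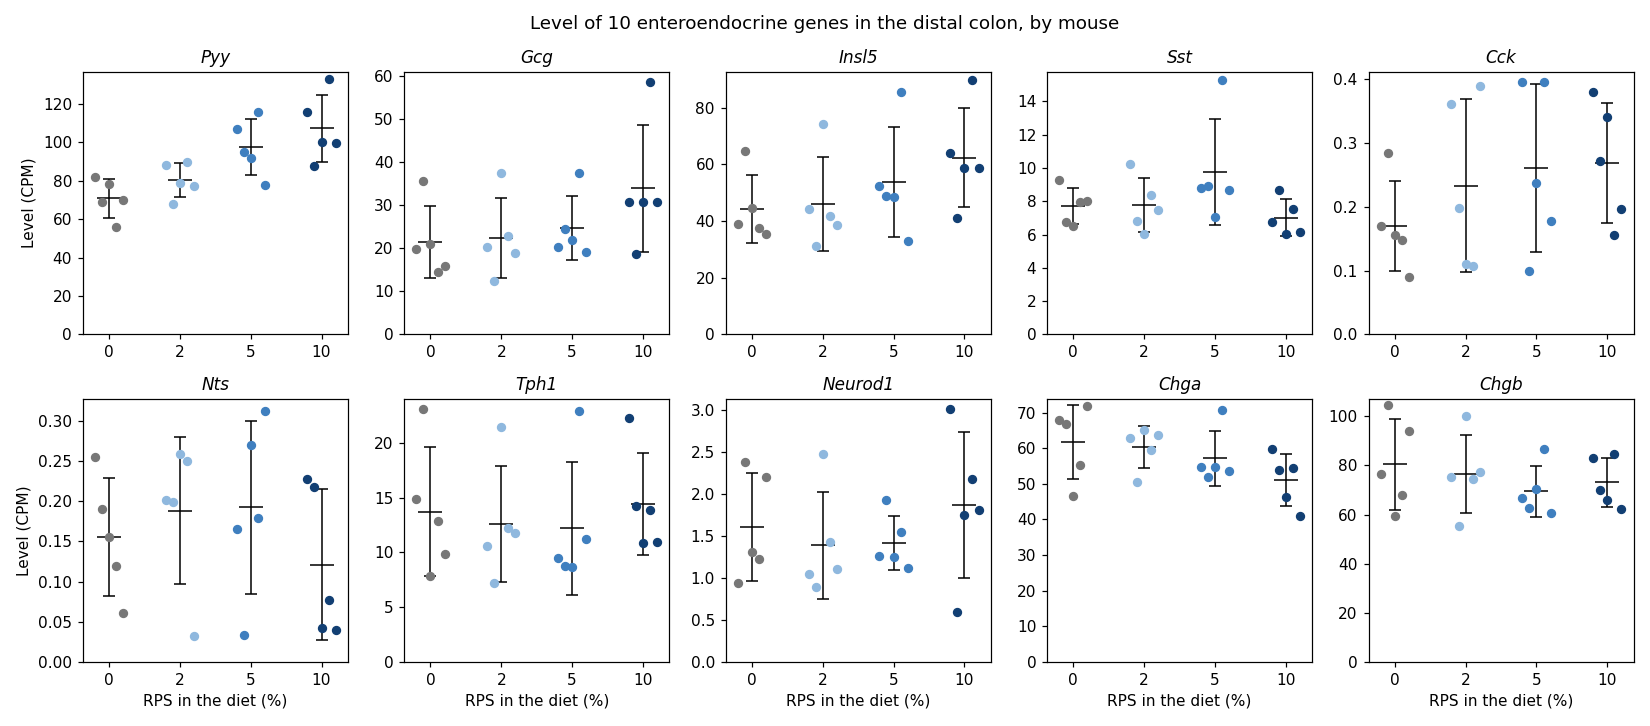
Level of each of the 10 genes in CPM (vertical axes, each from 0) against the percent of RPS in the diet (horizontal axes, as categories). Points are mice, horizontal bars the mean and error bars 1 SD of 5 mice. The Pyy points at 10% RPS, from 87.5 to 133 CPM, all lie above the control points, while every other gene has overlapping groups.

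The other L cell hormones, Gcg and Insl5, also had higher means at 10% RPS, but no test of either passed. Gcg measured 19.8, 35.6, 21.1, 14.5 and 16 CPM in the control mice and 30.7, 18.7, 30.8, 58.7 and 30.9 CPM at 10% RPS. The groups overlapped, since control mouse RS10_703 lay above all of the 10% RPS mice except RS10_731. The mean was 21.4 ± 8.37 CPM (SD, n = 5) at 0%, 22.4 ± 9.30 at 2%, 24.7 ± 7.45 at 5% and 33.9 ± 14.8 at 10% RPS. At 10% RPS the log2 fold change was 0.67 ± 0.32 (SE) with an edgeR adjusted p of 0.336. Its slope of 0.0678 ± 0.0280 had an adjusted p of 0.191. Both values leaned on mouse RS10_731, without which the log2 fold change was 0.38 and the slope 0.0384.

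Insl5, whose product acts on the receptor Rxfp4, stood at 38.9, 64.6, 44.7, 37.6 and 35.5 CPM in the control mice. At 10% RPS it reached 63.96, 41.1, 58.7, 89.6 and 58.6 CPM. As with Gcg, 1 of the 5 mice on 10% RPS was above the highest control mouse. This gave a log2 fold change of 0.50 ± 0.27 and a slope of 0.0518 ± 0.0235 per 1% RPS, at adjusted p of 0.388 and 0.232. With the epithelium markers as a covariate, the slope of Gcg was 0.0141 ± 0.0332 and that of Insl5 0.00315 ± 0.0254.

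**Figure D2:**
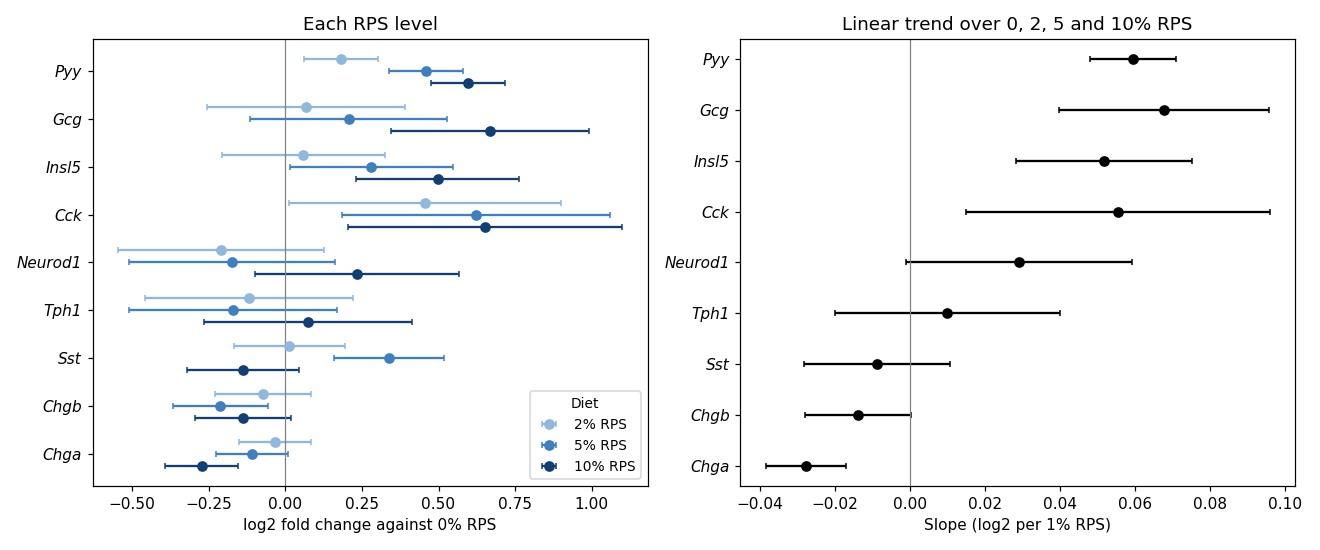
Left, log2 fold change of the 9 tested members at 2, 5 and 10% RPS against 0% RPS; right, slope of the linear trend in log2 units per 1% RPS. Points are edgeR estimates from 5 mice per diet and bars 1 SE. Pyy has the smallest error relative to its slope, and Chga has the lowest slope of the 9.

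Next to Pyy on chromosome 11 lies its relative Ppy, the pancreatic polypeptide gene, which belongs to the list of other gut hormone genes. In GRCm39, Pyy spans chr11:101997502-101998658 and Ppy chr11:101990756-101992145, both on the minus strand, with 5356 bases and no annotated gene between them. No 50-base word of the transcripts of either gene occurred in a transcript of another gene, so reads of this length could be told apart. Ppy measured 2.64, 5.03, 3.45, 1.28 and 2.44 CPM in the control mice. At 2% RPS the level was 3.18, 4.90, 6.16, 4.22 and 2.46 CPM and at 5% RPS 5.52, 6.19, 5.68, 7.58 and 2.10 CPM. With 10% RPS it was 8.21, 3.26, 7.38, 13.4 and 7.96 CPM, and 4 of these 5 mice lay above every control mouse. The slope was 0.137 ± 0.0335 per 1% RPS with an edgeR adjusted p of 0.0365, so the trend was called. At 10% RPS the log2 fold change was 1.45 ± 0.38, or 2.72-fold, with an adjusted p of 0.0958 in edgeR and 0.0218 in DESeq2.

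This trend was less stable than that of Pyy. It missed the threshold when any one of mice RS10_701, RS10_707, RS10_708, RS10_709, RS10_725, RS10_729, RS10_731, RS10_748 and RS10_784 was left out, with adjusted p of up to 0.114 over the 20 fits. Without both mice with pancreatic enzyme RNA the slope was 0.137 ± 0.0361 and the adjusted p 0.0957. The adjusted p was 0.0565 with no filter on low counts and 0.0528 with Dbp as a covariate. Ppy is also a pancreatic islet gene. Mouse RS10_721, which carried most acinar RNA, had 7.58 CPM of Ppy, the highest on 5% RPS, with 6.19 CPM in the next mouse. Mouse RS10_784, the other with acinar RNA, had 7.96 CPM, where the mice on 10% RPS ranged from 3.26 to 13.4 CPM. The part of pancreatic RNA in the level of Ppy was not tested. With the epithelium markers as a covariate the slope of Ppy was 0.0720 ± 0.0400 at an adjusted p of 0.923, and without Krt20 and Cdx2 in the covariate 0.115 ± 0.0391 at 0.284. Without the 3 mice with disagreeing labels the adjusted p was 0.0991, and with the treatment label it was 0.279.

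Pyy and Ppy are neighbours with a trend called under the description label, and Gcg is expressed in the same L cells as Pyy. The 200 bases before the start of the main transcript of each are shown. They were read from GRCm39 at chr11:101998659-101998858, chr11:101992146-101992345 and chr2:62313998-62314197, all on the minus strand and printed 5′ to 3′ as the gene reads. Capitals mark TATAA, searched on both strands, and CANNTG, the palindromic core bound by Neurod1 and other factors of its family.
Pyy: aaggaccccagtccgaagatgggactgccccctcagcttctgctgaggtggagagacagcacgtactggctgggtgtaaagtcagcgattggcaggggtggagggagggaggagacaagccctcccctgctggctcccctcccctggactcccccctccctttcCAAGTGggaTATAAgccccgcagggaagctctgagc
Ppy: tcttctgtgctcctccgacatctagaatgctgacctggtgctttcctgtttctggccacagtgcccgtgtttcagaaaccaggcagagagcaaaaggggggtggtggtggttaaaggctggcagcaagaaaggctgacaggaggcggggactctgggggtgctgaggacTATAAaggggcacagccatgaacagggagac
Gcg: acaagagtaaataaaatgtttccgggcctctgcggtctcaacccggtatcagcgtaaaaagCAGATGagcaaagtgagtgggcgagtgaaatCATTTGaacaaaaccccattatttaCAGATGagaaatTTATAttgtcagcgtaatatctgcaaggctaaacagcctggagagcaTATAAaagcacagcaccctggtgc
A TATAA on the gene's strand started 27 bases before the transcript of Pyy, 31 before that of Ppy and 24 before that of Gcg. This motif was present in the same window of 4 of the 10 members, Pyy, Gcg, Insl5 and Tph1, and of 11.7% of 15415 tested protein-coding genes. CANNTG was found in 9 of 10 members, all but Tph1, and in 52.6% of those genes. Gcg held 3 copies, Pyy 1 and Ppy 0. The form CAGATG or its complement, held by 9.13% of the genes, occurred at Gcg in 2 copies and at Insl5 and Chgb in 1 each. Pyy and Ppy matched at 47.7% of 214 aligned columns, close to the 46.5% of Pyy and Gcg. A match of these letters is a description of the window only.

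Tph1, the serotonin enzyme gene, did not pass the test at any RPS level. It stood at 14.9, 23.1, 7.83, 12.9 and 9.85 CPM in the control mice and at 22.3, 14.2, 10.9, 13.9 and 10.98 CPM at 10% RPS. Every one of the 10% RPS values lay within the control range. The log2 fold change at 10% RPS was 0.08 ± 0.34 with an edgeR adjusted p of 0.942, so that changes of either sign lay within the error. Its sign turned in several alternative fits, among them those with the treatment label and without mouse RS10_725. Mast cells also make serotonin. Their 9 markers summed to 4.61 to 13.0 CPM at 0% RPS and to 6.14 to 15.99 CPM at 10% RPS, with 8 of the 9 under 1 CPM on average and none at 0 in all mice. The part of mast cells in the level of Tph1 was not tested.

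Sst, the somatostatin gene of D cells and of some enteric neurons, measured 9.27, 6.77, 6.52, 7.97 and 8.05 CPM without RPS. On 10% RPS it measured 6.77, 8.65, 6.02, 7.53 and 6.16 CPM, which overlaps with the controls. The log2 fold change was -0.14 ± 0.18 at 10% RPS and 0.34 ± 0.18 at 5% RPS, at adjusted p of 0.773 and 0.587. The 5% value included mouse RS10_721, which held 15.3 CPM against at most 8.94 CPM in the other 4 mice. The 10 enteric neuron markers summed to 164 to 218 CPM at 0% and 144 to 246 CPM at 10% RPS, and the 4 enteric glia markers to 29.7 to 32.2 and 21.8 to 34.2 CPM, with none of either at 0 in all mice. The part of neurons in the level of Sst was not tested. Cck had 0.170 ± 0.0710 CPM (SD, n = 5) at 0% RPS and 0.269 ± 0.0947 CPM at 10% RPS, from at most 12 counts, and 9.95% of the 50-base words of its transcripts occur in other genes. Its log2 fold change of 0.65 ± 0.45 at 10% RPS had an adjusted p of 0.515. Neurod1, which drives the maturation of these cells, had a mean of 1.61 ± 0.639 CPM without RPS and of 1.87 ± 0.868 CPM at 10%, that is a log2 difference of 0.23 ± 0.33 with an adjusted p of 0.793. Without the 3 mice with disagreeing labels this difference was 0.0086. In the annotation Neurod1 lies within the longer gene Cerkl on the same strand, and 10.4% of its 50-base words occur in transcripts of other genes, so its count is uncertain.

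No change of the chromogranins, general markers of endocrine granules, passed the test. Chga stood at 68.0, 66.8, 46.6, 55.4 and 71.8 CPM in the control mice. At 10% RPS the values were 59.7, 53.8, 46.2, 54.5 and 41.0 CPM, with 2 of 5 mice below the lowest control mouse. Its log2 fold change was -0.27 ± 0.12 with an edgeR adjusted p of 0.278, and the slope -0.0278 ± 0.0107 per 1% RPS with 0.155. Without both mice with pancreatic enzyme RNA the adjusted p of this slope was 0.294. Chgb went from 80.5 ± 18.6 CPM at 0% to 73.1 ± 10.1 CPM at 10% RPS, a log2 fold change of -0.14 ± 0.16 at an adjusted p of 0.727. An annotated antisense transcript shares 6.43% of the 50-base words of Chgb, and whether the counting used strand is not stated.

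Over the 9 tested members, 0 were called at 10, 5 or 2% RPS by edgeR, under the double threshold of an adjusted p up to 0.05 and a change of 1.5-fold or more, where 0.0391%, 0% and 0% of all tested genes were called. At an unadjusted p under 0.05 there were 2 members at 10% RPS, Pyy and Chga, 1 at 5%, Pyy, and 0 at 2%, beside 15.2%, 9.19% and 1.41% of all tested genes. DESeq2 called Pyy at 10% RPS, where it called 1.24% of genes, and no member at 5 or 2%, where it called 0.195% and 0.00386%. A test of any difference among the 4 diets called 0 members and 0.0727% of genes in edgeR, with Pyy, and 10.6% of genes, under 0.05 before adjustment. DESeq2 called Pyy there, along with 2.01% of genes. For the trend, 4 members had an unadjusted p under 0.05, Pyy, Gcg and Insl5 upward and Chga downward, as did 19.1% of all genes. DESeq2 gave a trend to 5.61% of genes and to Pyy alone among the members. The median slope was 0.0290 over the 9 members and -0.00158 over all tested genes.

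Several pairs of members varied together between mice of the same diet. After the mean of each diet was subtracted, the Spearman rho over the 20 mice was 0.81 for Gcg and Insl5 and 0.87 for Chga and Chgb. It was 0.65 for Gcg and Pyy, 0.60 for Pyy and Insl5, and 0.69 for Tph1 and Chga. Neurod1 had a rho of 0.68 with Insl5, 0.63 with Chgb and 0.62 with Gcg. Between the L cell hormones Gcg, Pyy and Insl5 and the chromogranins, it ranged from 0.26 for Gcg and Chga to 0.52 for Insl5 and Chgb. Whether the members form separate groups was not tested. For Sst, the rho was -0.10 with Gcg, -0.15 with Insl5 and 0.37 with Pyy. Ppy went with Insl5 at 0.77 and with Gcg at 0.74, and with its neighbour Pyy at 0.47. These values describe 20 libraries that share their depth and their makeup of tissue layers across genes. The smooth muscle marker level, for example, had a rho of -0.58 with Neurod1, -0.54 with Tph1 and -0.48 with Gcg, and log2 Dbp, an output of the circadian clock, -0.71 with Tph1. The 11 clock output genes summed to 585 to 1051 CPM at 0% and 513 to 833 CPM at 10% RPS. The part of time of day in these relations was not tested.

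**Figure D3:**
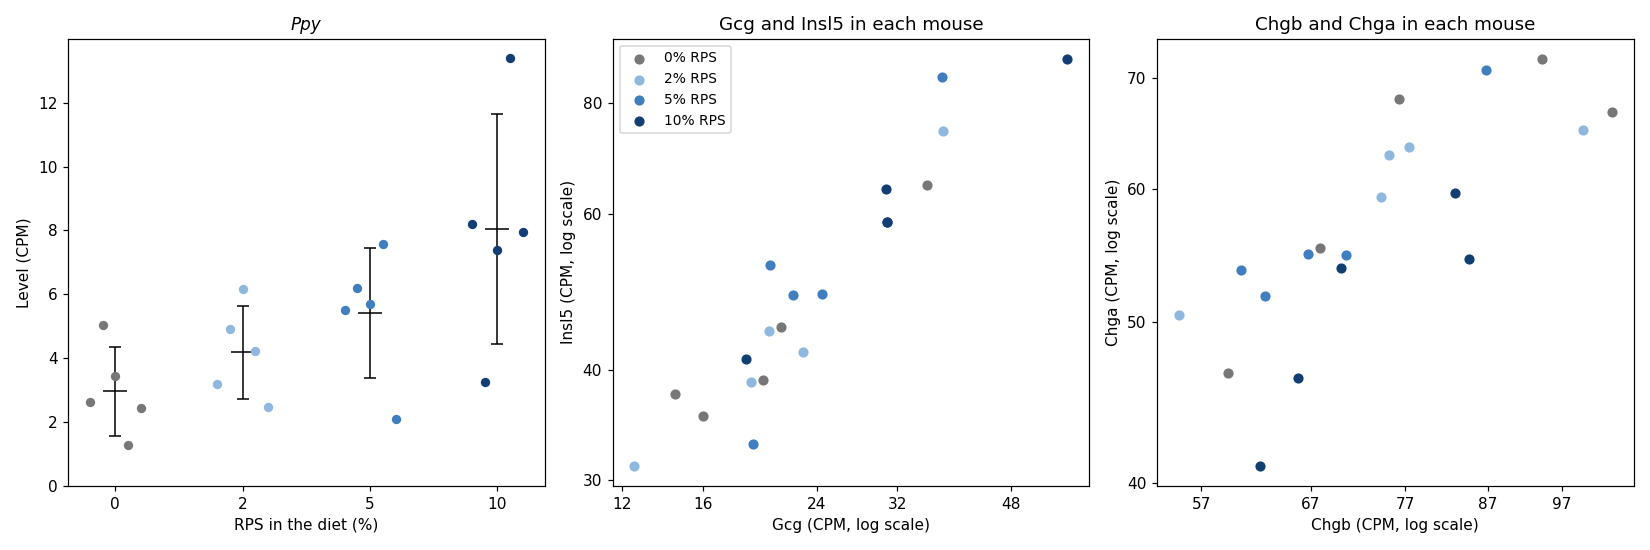
Left, Ppy in CPM by diet, with points for mice, horizontal bars for the mean and error bars of 1 SD (n = 5); middle and right, Gcg against Insl5 and Chgb against Chga in CPM on log axes, 1 point per mouse, coloured by diet. Ppy reaches 13.4 CPM at 10% RPS, and both pairs rise together over the mice, with a rho of 0.81 and 0.87 within diets.

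The 3 genes most like each member by this measure were mostly not endocrine genes. Of the 27 places for the 9 members, 2 were taken by members, Chga and Chgb, each first on the other's list. Gcg went most closely with Dag1, the dystroglycan gene, at a rho of 0.89, and with Plcxd2 and Caprin1 at 0.89 and 0.87. For Pyy the highest were R3hdml, Slc2a10 and Kl, at 0.75, 0.74 and 0.74. Insl5 was followed by Spef1 at 0.93, Phf6 at 0.91 and Tmem263 at 0.88. For Sst they were Slc27a1, H2-T23 and Arvcf at 0.85, 0.83 and 0.82, and for Cck, from a handful of counts, Rab35, Rsl24d1 and Ddx24 at 0.82, 0.81 and 0.79. Tph1 lay closest to Pde4dip, Fyn and Srrm1, at 0.90, 0.90 and 0.89. After each other, Chga came nearest to Marchf9 and Arhgap28, at 0.85 and 0.82, and Chgb to Iglv2 and Pon3, at 0.85 and 0.84. Neurod1 was nearest to Vps13b, Yes1 and Mrap, at 0.89, 0.87 and 0.87. With 17893 genes compared over 20 mice, high values of rho are frequent.

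Among the other genes of the enteroendocrine system that were listed, Ppy alone passed the trend threshold in edgeR. The list of other gut hormone genes held 9, of which 5 were tested and 1 rose. Tac1, the substance P gene of enteric neurons and some enterochromaffin cells, was the highest of the 5 per kilobase at 13.1 CPM and had a log2 fold change of -0.10 ± 0.15 at 10% RPS. Ghrl, the ghrelin gene, went from 0.299 ± 0.142 to 0.432 ± 0.194 CPM, with an adjusted trend p of 0.423.

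None of the 16 enteroendocrine transcription factor genes, all tested, passed the trend threshold in either direction, and their median slope was -0.00882. Foxa1 and Foxa2, forkhead factors of the gut epithelium, were the highest per kilobase, at 23.6 and 10.6 CPM. Foxa2 and the LIM-homeodomain gene Isl1 had the smallest trend p of the list, with slopes of -0.0228 ± 0.0123 and -0.0188 ± 0.0114 and adjusted p of 0.316 and 0.381.

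The 17 genes for prohormone processing, granules and amine handling were all tested, and 0 passed in either direction, with a median slope of -0.0140. Cpe, a carboxypeptidase that trims prohormones, stood at 68.3 CPM per kilobase and Pam, which amidates peptide hormones, at 54.5. Their log2 fold changes at 10% RPS were -0.18 ± 0.13 and -0.08 ± 0.06. The closest to the threshold was Vgf, a granule protein gene, which went from 0.731 ± 0.208 CPM to 1.41 ± 0.443 CPM, with 4 of 5 mice on 10% RPS above every control mouse. Its slope was 0.0925 ± 0.0261 with an adjusted p of 0.0594 in edgeR and 0.0156 in DESeq2, so the call depended on the tool. The edgeR adjusted p of this slope was 0.105 without the 3 mice with disagreeing labels and 0.270 with the treatment label. Cplx2, a regulator of exocytosis, had a slope of -0.0273 ± 0.0110 at an adjusted p of 0.174.

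Of 26 genes for receptors and clearance of the hormones and of serotonin, 21 were tested and 0 passed in either direction. Maoa, which breaks down serotonin, was the highest per kilobase, at 117 CPM, and had a log2 fold change of -0.01 ± 0.15 at 10% RPS. Sort1, which encodes the neurotensin receptor sortilin, went from 303 ± 25.5 to 351 ± 21.9 CPM, with a slope of 0.0210 ± 0.0063 and an adjusted p of 0.0723 in edgeR and 0.0218 in DESeq2. The edgeR adjusted p of this slope was 0.150 without the 3 mice with disagreeing labels and 0.398 with the treatment label. Sstr3, a somatostatin receptor gene, had a slope of -0.0490 ± 0.0210 at an adjusted p of 0.200, which was -0.0311 without mouse RS10_725 and -0.0292 without the 3 mice with disagreeing labels. The luminal sensors numbered 11, with 10 tested and 0 past the trend threshold in either direction. The highest of them per kilobase, and those of smallest trend p, were the fatty acid receptor gene Ffar4, at 3.13 CPM, and the olfactory receptor gene Or51e2, at 1.67 CPM. Their slopes were 0.0245 ± 0.0171 and 0.0251 ± 0.0161, with adjusted p of 0.453 and 0.409.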

How the data were processed

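The authors isolated RNA from distal colon, sequenced stranded polyadenylated libraries as single-end reads, removed low-quality bases, mapped the reads to GRCm39 in CLC Genomics Workbench and deposited raw counts per gene and mouse. The counts were not normalised or pooled. The annotation release, use of strand and handling of multiply mapping reads are not given in the sources used here.

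Diet groups came from the description label. Of 26619 identifiers, 26338 were found in GENCODE vM39, which gave symbols, positions and transcript lengths. Analysis used R 4.3.3 and edgeR 4.0.16. Genes were filtered by filterByExpr (minimum count 10), scaled by TMM and tested with glmQLFit (robust) and glmQLFTest in 1 fit over 4 diets, with Benjamini-Hochberg adjustment over 17893 genes. The trend used RPS percent as a number. Called genes had an adjusted p of at most 0.05 and, in contrasts, a fold of at least 1.5. DESeq2 1.42.0 with its default filters was an alternative, as were other scaling, filters, labels, covariates (mean log2 CPM of marker lists, prior count 2) and each mouse left out. The procedure was tested on simulated data. The 40 pairs of mice within a diet gave a chi-square per degree of freedom of at least 9.10, so no library looked deposited again within its diet. Pairs across diets were not compared. P-values measure the spread between mice; litters and cages are not given.

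The members and lists were chosen with earlier results of these data known. Named were the 10 members, every listed pathway gene past a threshold, the 2 of highest level per kilobase and the 2 of smallest trend p in each list, and the 3 genes most correlated with each member. Nts, which failed the filter, has no such genes. The leave-out of both mice with pancreatic RNA, the thinning and the covariate without Krt20 and Cdx2 were added after the data were seen. Amino acid sequences are not used here.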

Additional observations from a re-analysis of the deposited data

Results flagged for a closer look

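A mouse was singled out where its gap to the nearest mouse of its diet exceeded 0.71 of the range of the 5 mice. In 44 groups of 5 mice (10 members and Ppy, 4 diets) this happened 5 times, and chance gives about 1 in 20 groups. Mouse RS10_721 on 5% RPS accounted for 4 of them. It held 37.5 CPM of Gcg, with 24.4 CPM in the next mouse and a gap of 0.712 of the range. Its level of Sst was 15.3 CPM against 8.94, a gap of 0.772. Tph1 stood at 22.9 CPM against 11.3, a gap of 0.816, and Chga at 70.8 CPM against 54.9, a gap of 0.84. This is the mouse with 5910 CPM of pancreatic acinar RNA, and it also had the lowest summed levels of smooth muscle markers, at 5794 CPM, and of posterior Hox genes, at 528 CPM, the highest of colon epithelium markers, at 23706 CPM, and the second highest of enteric neuron markers, at 227 CPM. It also held the highest count of the islet gene Ins1, at 3, and shared the highest count of Ins2, at 5, with control mouse RS10_707. The part of pancreatic RNA and of tissue makeup in its hormone levels was not tested. For Nts at 2% RPS, mouse RS10_748, one of the 3 with disagreeing labels, lay below the others at 0.0324 CPM, from 1 count, against 0.199 CPM, a gap of 0.737.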

How the results depend on the processing

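Of 211 refits of the 9 members' log2 fold changes at 10% RPS and slopes, other than the leave-outs, 191 kept direction and call, 4 gained a call, 4 lost it and 12 turned sign. The cause was not tested in any of these. Pyy was called at 10% RPS with DESeq2, RLE scaling, the smooth muscle covariate and thinning, which made the members called 1 in place of 0, and DESeq2 also gave 1 member with any diet difference. Members with a trend went from 1 to 0 with the treatment label, without the 3 mice with disagreeing labels and with either epithelium covariate. The log2 fold change of Tph1 at 10% RPS was -0.16 with the treatment label, -0.13 without those 3 mice, -0.35 and -0.031 with the epithelium covariate with and without Krt20 and Cdx2, and -0.28 with Dbp as a covariate; its slope was -0.00749, -0.0112, -0.0161 (all epithelium markers) and -0.0227 (Dbp). For Neurod1 the treatment label gave -0.10 and a slope of -0.00116. The epithelium covariate gave -0.054 for Insl5 and, for Ghrl, -0.47 and a slope of -0.0237. Genes called at 10% RPS numbered 7, and 12 with no fold threshold, 210 with DESeq2, 13 with RLE, 3 with only those diets, 32 and 15 with the smooth muscle and Dbp covariates, and 0 with the treatment label, without the 3 mice and with either epithelium covariate. At 5% RPS 0 became 29 with DESeq2 and 1 with only those diets, and at 2% RPS 1 with DESeq2. Genes with any difference, 13, became 349 with DESeq2, 8 with RLE, 4 without both mice with pancreatic RNA, 7 after thinning, and 0 with the treatment label, without the 3 mice and with either epithelium covariate. Trend genes, 375, became 973 with DESeq2, 0 with the treatment label, 56 without the 3 mice, 0 and 8 with the epithelium covariates and 60 without both pancreatic RNA mice.

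Over the 20 leave-outs, genes called at 10% RPS ranged from 5 to 188, at 5% from 0 to 1, genes with any difference from 0 to 42 and trend genes from 24 to 1148. Members called at 10% ranged from 0 to 1, with Pyy called without RS10_703, RS10_704, RS10_721, RS10_724 or RS10_727, and members with any difference from 0 to 1. The highest counts at 10% RPS and for the trend both came without RS10_727. The log2 fold change of Tph1 at 10% ranged from -0.14 to 0.35 and its slope from -0.0126 to 0.0308, and the fold change of Neurod1 from -0.000339 to 0.45. No paired analysis was possible because mouse numbers are unique to an animal. At 1 to 12 counts per library, depth limits Cck and Nts.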
